A study of Mus musculus with 8 samples.

Results

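The average effect of Rbbp7 siRNA was measured in late mouse morulae from 8 poly(A) RNA-seq libraries, 4 from embryos that received siRNA against Rbbp7 and 4 from embryos that did not. These 8 were all the libraries of the series, and they form a 2 by 2 design with 2 libraries per group. In the control group the zygotes had been injected with a non-specific siRNA, in the Rbbp4 knockdown group with Rbbp4 siRNA, in the Rbbp7 knockdown group with Rbbp7 siRNA, and in the double knockdown group with both. All embryos were collected 78 h after fertilization, and every group, the control included, had been injected at the zygote stage. The labels used here name no mouse strain, no number of embryos per library and no separate collection for each replicate, so the p-values below measure the spread between these libraries, which may be technical. The average effect is the Rbbp7 term of a model with 1 term for each siRNA: it sets the Rbbp7 and double knockdown libraries against the control and Rbbp4 knockdown libraries while allowing for Rbbp4 siRNA. It was fitted to 12565 genes of the 19058 in the deposited table, those whose mean over the 8 libraries reached 10, and a gene was called at a Benjamini-Hochberg adjusted p under 0.05.

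RBBP7 and its close relative RBBP4 are WD-repeat proteins that bind histone H3 and H4. They act as histone-binding subunits of several chromatin machines, among them the NuRD and SIN3 deacetylase complexes, the polycomb repressive complex PRC2 and histone acetyltransferase complexes. The study asked, by its title, how far the functions of the pair overlap in cell proliferation and in the deposition of the H3 variant H3.3 before implantation. The late morula is the stage at which outer cells polarise and take on trophectoderm identity, building an epithelium that pumps ions and water to form the blastocyst cavity, while inner cells keep pluripotency factors. In these bulk samples, fewer cells of a type and less RNA per cell cannot be told apart.

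Rbbp7 siRNA lowered Rbbp7 mRNA in all 4 libraries that received it, and few other genes passed the adjusted threshold. Apart from the target, 14 genes were called, 10 lower and 4 higher. The lower genes included 4 on the trophectoderm lists: Enpep, Id2, Atp1b1 and Fabp3. With the target, 15 of 12565 genes (0.119%) were called, 11 lower (0.0875%) and 4 higher (0.0318%), while 1517 genes (12.1%) had an unadjusted p under 0.05. In 777 genes (6.18%) the 4 libraries with Rbbp7 siRNA lay wholly on 1 side of the 4 without, below in 431 (3.43%) and above in 346 (2.75%). Among all tested genes the log2 change was above 0 in 50.5% and below 0 in 49.5%, and its median was 0.0036.

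The libraries were even in summed normalized abundance, which ran from 11334107 to 12011829. Control replicate 1 stood apart: 3937 genes were at 0 in it against 2644 to 3237 in the other 7 libraries, and mitochondrially encoded genes took 6.21% of its summed abundance against 4.26% to 5.53%. Of the 13 mitochondrially encoded genes, 12 had a negative average change with Rbbp7 siRNA (median −0.075), and 12 a positive one without that library (median 0.078). All 10 late morula markers were detected in every library. The summed level of the 8 oocyte or zygote markers was 99.4 to 185 with Rbbp7 siRNA and 101 to 162 without, and of the 5 cumulus or granulosa markers that could be matched 95.6 to 275 with and 124 to 242 without, so these ranges overlapped. The sperm markers that could be matched, 4 of 7, summed to at most 4.91 in any library. The blood markers that could be matched, 3 of 7, summed to at most 24.4.

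These 4 promoters are printed as examples from the called genes: Enpep and Atp1b1, which fell, and Cd81 and Klrg2, which rose. Each is the 300 bases from 250 before to 50 after the start listed by RefSeq (build GRCm38.p6), written 5′ to 3′ on the strand of the gene, with CG dinucleotides in capitals.
Enpep (chr3:129332700-129332999, minus strand): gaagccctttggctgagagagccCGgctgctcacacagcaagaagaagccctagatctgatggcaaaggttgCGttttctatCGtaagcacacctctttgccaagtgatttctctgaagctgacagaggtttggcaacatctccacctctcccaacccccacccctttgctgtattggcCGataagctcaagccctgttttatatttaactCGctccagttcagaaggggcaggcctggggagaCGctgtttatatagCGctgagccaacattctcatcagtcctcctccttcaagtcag
Atp1b1 (chr1:164458306-164458605, minus strand): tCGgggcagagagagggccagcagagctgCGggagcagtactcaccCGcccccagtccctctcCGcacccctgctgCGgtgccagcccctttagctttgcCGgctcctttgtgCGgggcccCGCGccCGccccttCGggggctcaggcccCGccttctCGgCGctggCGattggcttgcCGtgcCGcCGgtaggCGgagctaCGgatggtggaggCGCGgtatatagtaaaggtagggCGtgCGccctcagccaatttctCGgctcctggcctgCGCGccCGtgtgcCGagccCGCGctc
Cd81 (chr7:143052500-143052799, plus strand): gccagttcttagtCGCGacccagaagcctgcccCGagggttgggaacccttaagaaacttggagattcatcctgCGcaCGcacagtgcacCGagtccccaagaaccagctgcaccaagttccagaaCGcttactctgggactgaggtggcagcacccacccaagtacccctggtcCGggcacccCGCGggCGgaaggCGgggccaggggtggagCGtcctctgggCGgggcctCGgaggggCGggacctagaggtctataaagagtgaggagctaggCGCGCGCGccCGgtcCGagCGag
Klrg2 (chr6:38637190-38637489, minus strand): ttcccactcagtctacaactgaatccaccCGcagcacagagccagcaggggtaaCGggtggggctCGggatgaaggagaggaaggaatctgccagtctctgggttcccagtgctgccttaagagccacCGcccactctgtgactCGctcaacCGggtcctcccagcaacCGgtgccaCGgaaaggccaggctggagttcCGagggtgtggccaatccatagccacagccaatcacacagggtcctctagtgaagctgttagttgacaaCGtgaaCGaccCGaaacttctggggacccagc
These windows hold 7, 31, 23 and 12 CG dinucleotides, in that order, where the median of all 32851 RefSeq mouse promoters of this length was 7 (quartiles 3 and 20). Of the 10 called genes that fell, 8 had a promoter in the RefSeq table, and their CG counts ran from 5 to 31 with a median of 21.5. The 4 that rose all had one, with 9 to 32 and a median of 17.5. The 32851 promoters were not limited to the tested genes, and no median or motif share was taken over the tested genes alone. The counts here and the motif shares below therefore do not show a trait particular to the called genes. Tdrp and Kpna3 were not matched. Both strands were also searched for 5 short motifs. GATAA, the core bound by GATA factors, occurred in 2 of the 8 and 1 of the 4 promoters, and in 25.4% of all. GGAATG, the core bound by TEAD factors, occurred in 0 of the 8 and 0 of the 4, and in 14.7% of all. The AP-2 motif GCCNNNGGC occurred in 2 of the 8 and 2 of the 4, and in 16.6% of all. The E-box CANNTG occurred in 6 of the 8 and 4 of the 4, and in 72.3% of all. CACGTG, a form of that E-box, occurred in 0 of the 8 and 0 of the 4, and in 7.2% of all.

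The target itself (Rbbp7, chrX:162760402-162779092, plus strand, GRCm38) stood at 8399 and 7205 with control siRNA, 6696 and 6295 with Rbbp4 siRNA alone, 298 and 293 with Rbbp7 siRNA alone, and 327 and 266 with both siRNAs. Its mean was 296 ± 25.2 (SD, n = 4) with Rbbp7 siRNA and 7149 ± 913 (SD, n = 4) without, so the level with siRNA was 4.14% of that without. The average log2 change on the log2(value + 1) scale, used throughout, was −4.58 ± 0.10 (SE, adjusted p = 5.87e-09). The 4 libraries with Rbbp7 siRNA lay far below the other 4 and close to each other. Rbbp4, the target of the other siRNA, read 5300.1 and 4710.0 with control siRNA, 402 and 343 with Rbbp4 siRNA alone, 4369.7 and 4467 with Rbbp7 siRNA alone, and 348 and 433 with both siRNAs, and its average change with Rbbp7 siRNA was −0.056 ± 0.11 (adjusted p = 0.872). Low Rbbp4 was thus found in the Rbbp4 and double knockdown libraries and low Rbbp7 in the Rbbp7 and double knockdown libraries, as labelled. Rbbp7 shares 174 exonic bases with Txlng on the opposite strand, which changed by 0.16 ± 0.12, and has a near-identical copy, Gm6382.

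**Figure D1:**
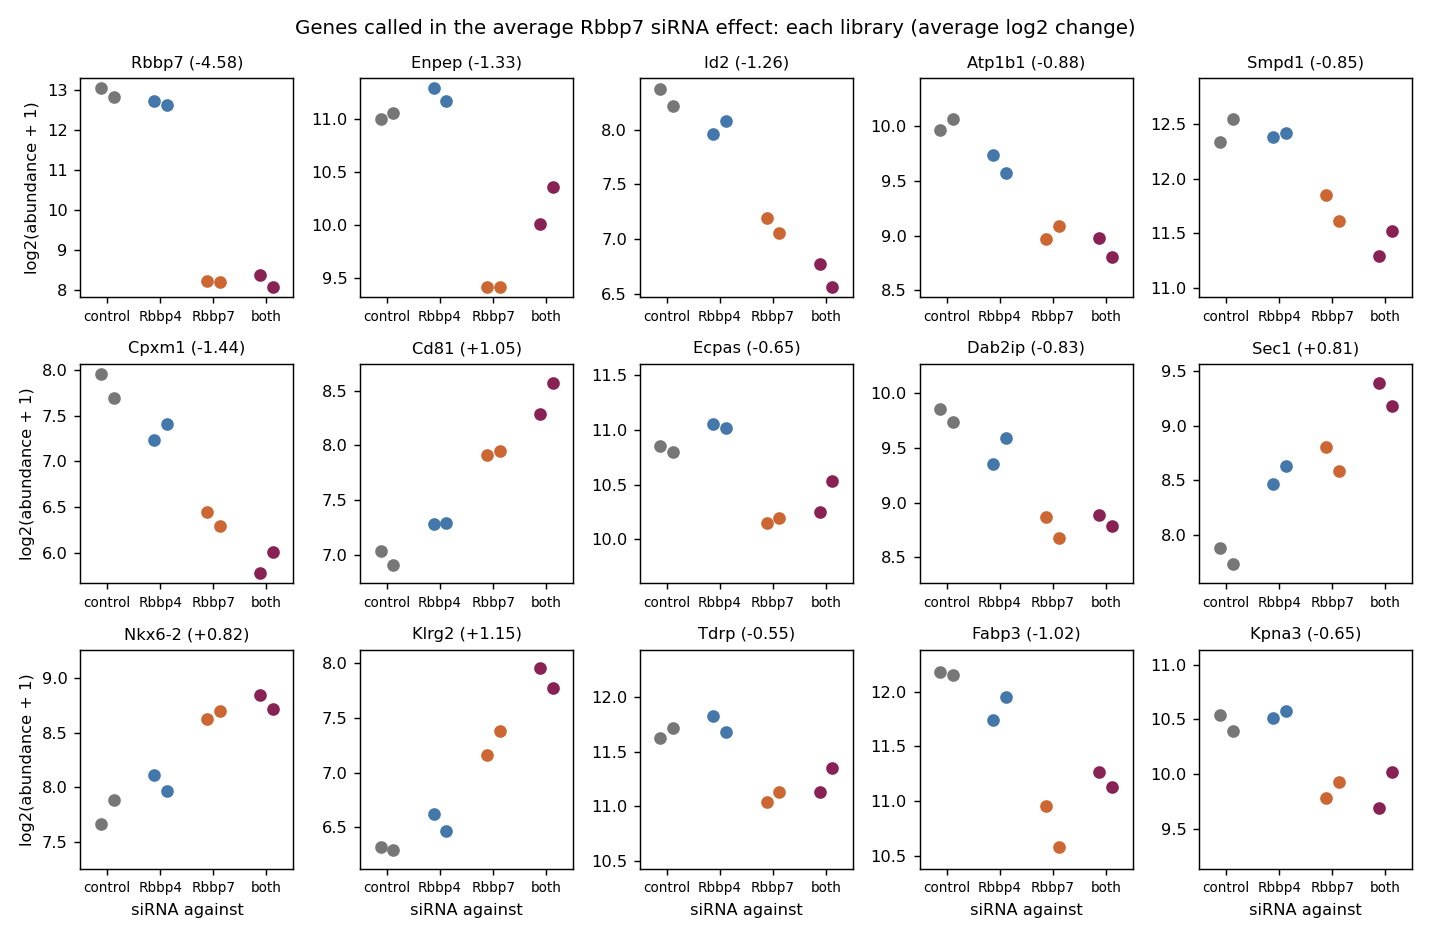
Log2(normalized abundance + 1) of the 15 called genes in each of the 8 libraries, by the siRNA injected. Each point is 1 library, the number beside a gene is its average log2 change with Rbbp7 siRNA, and in all panels but Sec1 the 4 libraries with Rbbp7 siRNA (orange and purple) lie wholly on 1 side of the 4 without (grey and blue).

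Among genes of the trophectoderm surface and its ion pump, 3 fell. Enpep (chr3:129269175-129332720, minus strand), which codes for glutamyl aminopeptidase, a membrane enzyme that trims acidic residues from peptides such as angiotensins, read 2056 and 2135 with control siRNA, 2508 and 2311 with Rbbp4 siRNA alone, 681 and 680.4 with Rbbp7 siRNA alone, and 1029 and 1317 with both siRNAs. Every library with Rbbp7 siRNA was below every library without it. The mean with siRNA, 927 ± 308 (SD, n = 4), was 41.2% of the mean without, 2252 ± 201 (SD, n = 4), and the log2 change was −1.33 ± 0.13 (adjusted p = 0.00662). Enpep had the smallest p after the target and was called again when any 1 of the 8 libraries was left out (adjusted p 0.00123 to 0.0485).

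Atp1b1 (chr1:164437109-164458355, minus strand), the beta subunit of the sodium-potassium pump that drives fluid into the blastocyst cavity, was at 1000.4 and 1073 with control siRNA, 852 and 762 with Rbbp4 siRNA alone, 499 and 544 with Rbbp7 siRNA alone, and 504 and 446 with both siRNAs. The groups did not overlap, and the Rbbp7 and double knockdown pairs covered overlapping ranges. Its log2 change was −0.88 ± 0.10 (adjusted p = 0.0136). Atp1b1 shares 575 exonic bases (18.7% of its exonic length) with Nme7 on the opposite strand, and no source used here says whether counting used strand; Nme7 changed by 0.073 ± 0.19.

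Fabp3 (chr4:130308595-130315463, plus strand), a cytosolic fatty acid carrier expressed in trophectoderm, was at 4649 and 4563 with control siRNA, 3412 and 3968 with Rbbp4 siRNA alone, 1984 and 1528 with Rbbp7 siRNA alone, and 2465 and 2242 with both siRNAs. The libraries with Rbbp7 siRNA were the lowest 4, and the Rbbp7 knockdown pair was the lowest of all. Its log2 change was −1.02 ± 0.15 (adjusted p = 0.045). A near-identical copy, Fabp3-ps1, could share its reads.

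The trophectoderm list of structural and surface genes held 29 tested members, of which 21 had a negative log2 change, with a median of −0.37 against 0.0036 over all genes. An unadjusted p under 0.05 was reached by 14 of the 29 in the lower direction, where the background was 6.37%, and by 2 in the higher direction, where it was 5.7%. In 9 members the 4 libraries with Rbbp7 siRNA lay wholly below the other 4, against a background of 3.43%. This list and the others were chosen with earlier results of these data known, so such shares describe the members and do not test them. Enpep, Atp1b1 and Fabp3 were the only members called. Without control replicate 1, 13 of the 29 members still had a lower value at unadjusted p under 0.05 and the median was −0.29. The median was −0.19 without Rbbp7 knockdown replicate 1 and −0.25 without control replicate 2, the smallest sizes among the 8 such fits. The list's median was −0.50 without and −0.16 with Rbbp4 siRNA, a gap that was not tested over the list.

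The keratin pair Krt8 and Krt18 was lower in each library with Rbbp7 siRNA without passing the adjusted threshold. Krt18, a type I keratin, was at 3299.9 and 4116 with control siRNA, 3217 and 2395 with Rbbp4 siRNA alone, 1174 and 1421 with Rbbp7 siRNA alone, and 1545 and 1959 with both siRNAs. The groups did not overlap, the log2 difference was −1.09 ± 0.18 and the adjusted p was 0.0767. Its partner Krt8 had 2400.1 to 4333 with and 4737 to 6945 without Rbbp7 siRNA, a difference of −0.80 ± 0.18 (adjusted p = 0.139). Krt19, a further keratin of simple epithelia, went the other way, at 1.19 (adjusted p = 0.257). Lrp2, the giant endocytic receptor megalin, read 10437 to 17338 with and 18112 to 21970.2 without (−0.54 ± 0.14, adjusted p = 0.166). Its partner receptor Cubn had −0.62 ± 0.15 (adjusted p = 0.159) with overlapping groups. Enpep, Lrp2 and Cubn were also on the list of apical endocytosis genes. Of its 19 tested genes, 11 were negative and 8 positive, with a median of −0.12. At unadjusted p under 0.05, 3 were lower (background 6.37%) and 2 higher (background 5.7%). That median was −0.020 without control replicate 2, −0.050 without Rbbp4 knockdown replicate 2 and −0.069 without double knockdown replicate 1, and 5 genes were lower at that threshold without Rbbp7 knockdown replicate 2 or without double knockdown replicate 2. Cdhr2, a cadherin of microvilli on the same list, went the other way, at 1.49 ± 0.45 (adjusted p = 0.230), and was highest in the double knockdown pair. Plet1, a surface protein of trophectoderm and placental progenitors, had −0.78 ± 0.13 (adjusted p = 0.0767). For Plet1 the average change with Rbbp4 siRNA, a comparison that uses the same 8 libraries, was −1.05 ± 0.13 (adjusted p = 0.0154), and its lowest values, 278 and 340 in the double knockdown libraries, followed both siRNAs.

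Among transcription regulators of trophectoderm, Id2 fell. Id2 (chr12:25093799-25097140, minus strand) codes for a helix-loop-helix protein that lacks a DNA-binding region and holds E proteins inactive, and is among the earliest genes to be restricted to outer cells. Its values were 330.3 and 296 with control siRNA, 248 and 270.2 with Rbbp4 siRNA alone, 145 and 132 with Rbbp7 siRNA alone, and 108 and 93.8 with both siRNAs. The highest library with Rbbp7 siRNA was well below the lowest without it. The mean with siRNA was 41.9% of that without, and the log2 change was −1.26 ± 0.14 (adjusted p = 0.0136).

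Of the 18 tested trophectoderm transcription factors, 15 had a negative log2 change and the median was −0.36. In all, 7 reached an unadjusted p under 0.05 in the lower direction (background 6.37%) and 1 in the higher direction (background 5.7%), and only Id2 passed adjustment. Gata3, a zinc-finger factor of outer cells, had 1835 to 2090.0 with and 2598 to 3065 without Rbbp7 siRNA, with no overlap (−0.51 ± 0.089, adjusted p = 0.0767). Cdx2, the homeobox factor needed for trophectoderm, read 1771 and 2869 with control siRNA, 2182 and 2071 with Rbbp4 siRNA alone, 1700.1 and 1914 with Rbbp7 siRNA alone, and 1409 and 1195 with both siRNAs. These overlapped, and its difference was −0.52 ± 0.15 (adjusted p = 0.221). Elf3, an epithelial ETS factor, had −0.38 ± 0.076 (adjusted p = 0.104). Tfap2c, an AP-2 factor shared by morula and trophectoderm, was at −0.14 ± 0.092 (adjusted p = 0.587), and Eomes at −0.73 ± 0.40 (adjusted p = 0.496) with a spread of 44.7 to 250.1 with Rbbp7 siRNA. Hand1, a factor of later trophoblast, was the 1 member of 3 positive ones that was higher at unadjusted p under 0.05, at 0.61 ± 0.13 (adjusted p = 0.134). With control replicate 1 left out, 15 of the 18 were negative and the median was −0.35.

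**Figure D2:**
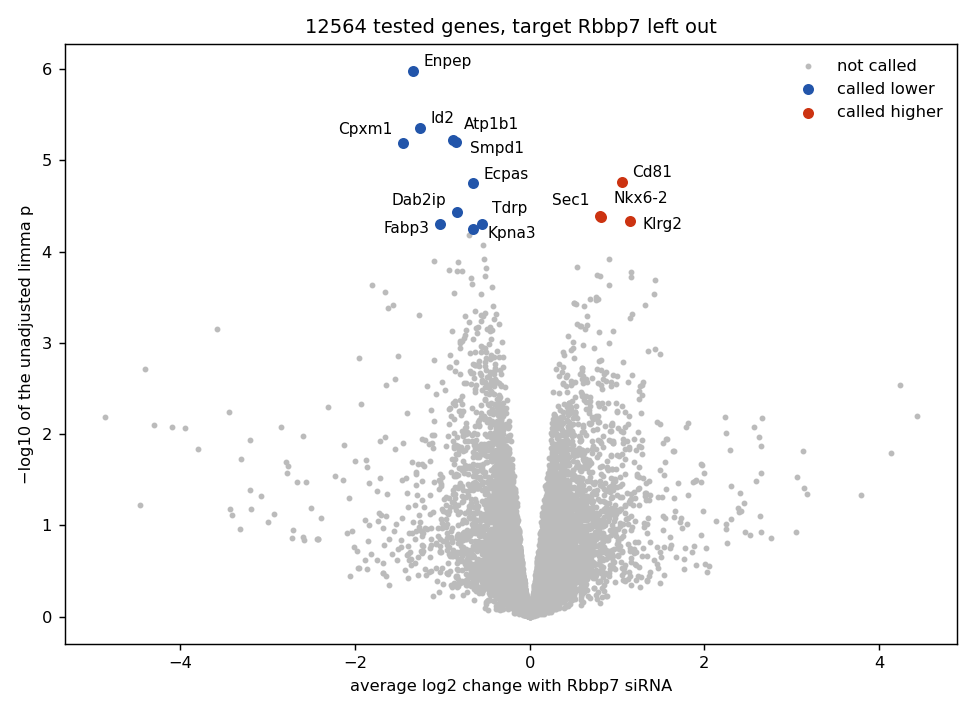
Average log2 change with Rbbp7 siRNA (x axis) against −log10 of the unadjusted limma p (y axis) for 12564 tested genes, the target left out. The 10 genes called lower, led by Enpep, and the 4 called higher are marked by name.

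The remaining genes that fell have more varied roles. Smpd1 (chr7:105554360-105558389, plus strand), the lysosomal acid sphingomyelinase, read 5161 and 5960.5 with control siRNA, 5319 and 5455 with Rbbp4 siRNA alone, 3689 and 3139.7 with Rbbp7 siRNA alone, and 2505 and 2943 with both siRNAs. Its groups did not overlap, and the double knockdown pair was the lowest (−0.85 ± 0.10, adjusted p = 0.0136). Cpxm1 (chr2:130390775-130397574, minus strand), a secreted member of the carboxypeptidase family, was at 247 and 207 with control siRNA, 149.7 and 169 with Rbbp4 siRNA alone, 86.2 and 77.4 with Rbbp7 siRNA alone, and 53.9 and 63.2 with both siRNAs. Among the called genes Cpxm1 had the largest fall after the target, to 36.3% of the level without Rbbp7 siRNA (−1.44 ± 0.17, adjusted p = 0.0136).

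Ecpas (chr4:58798911-58912749, minus strand), a proteasome adaptor and scaffold, fell from 1776 to 2129.5 without to 1133 to 1482 with Rbbp7 siRNA (−0.65 ± 0.086, adjusted p = 0.0277). Dab2ip (chr2:35558266-35730994, plus strand), a GTPase-activating protein for Ras, had 653 to 926 without and 408 to 473 with (−0.83 ± 0.12, adjusted p = 0.045). Tdrp (chr8:13952008-13975032, minus strand), a gene named for its role in testis development, had 3156 to 3626 and 2099 to 2603 (−0.55 ± 0.082, adjusted p = 0.045). Kpna3 (chr14:61365211-61439874, minus strand), an importin alpha that carries proteins into the nucleus, had 1342 to 1527 and 824 to 1038 (−0.65 ± 0.10, adjusted p = 0.0477). In each of these 4 genes the lowest library without Rbbp7 siRNA was above the highest with it.

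In all, 4 genes rose. Cd81 (chr7:143052739-143067934, plus strand), a tetraspanin of the cell surface, was at 130.3 and 119 with control siRNA, 154 and 156 with Rbbp4 siRNA alone, 240.3 and 245 with Rbbp7 siRNA alone, and 311 and 380.2 with both siRNAs. The double knockdown libraries were the highest, the groups did not overlap, and the level with Rbbp7 siRNA was 210.5% of that without (1.05 ± 0.14, adjusted p = 0.0277). Klrg2 (chr6:38625693-38637242, minus strand), a lectin-like membrane protein, was at 78.8 and 77.2 with control siRNA, 97.1 and 87.2 with Rbbp4 siRNA alone, 142 and 166 with Rbbp7 siRNA alone, and 247 and 218 with both siRNAs. Its rise was the largest of the 4, 1.15 ± 0.17 (adjusted p = 0.045). Nkx6-2 (chr7:139579376-139582797, minus strand), a homeobox factor known from the nervous system, rose from 202 to 276 to 394 to 460.0 (0.82 ± 0.12, adjusted p = 0.045). It shares 246 exonic bases with Inpp5a on the opposite strand, which changed by −0.13 ± 0.10.

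Sec1 (chr7:45677686-45694402, minus strand), a fucosyltransferase gene, was the only called gene whose groups overlapped. It read 235 and 213 with control siRNA, 353 and 396 with Rbbp4 siRNA alone, 445 and 384 with Rbbp7 siRNA alone, and 669 and 581 with both siRNAs. The average difference with Rbbp4 siRNA was 0.67 ± 0.12 (adjusted p = 0.0614), and the double knockdown libraries were the highest and the control libraries the lowest. Its average change with Rbbp7 siRNA was 0.81 ± 0.12 (adjusted p = 0.045). Sec1 shares 519 exonic bases with Ntn5 on the opposite strand, which changed by 0.29 ± 0.40.

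These calls depended on having all 8 libraries. Leaving out 1 library at a time gave 2 to 6 called genes in 7 of the 8 fits and 15 in the fit without double knockdown replicate 2, where 9 of the 15 genes were the same. Without control replicate 1 the called genes were Rbbp7, Enpep and Smpd1. In these 8 fits the call held in 3 for Id2 (adjusted p 0.0403 to 0.099), in 3 for Atp1b1 (0.0367 to 0.099) and in 3 for Smpd1 (0.0226 to 0.099). It held in 1 each for Cpxm1 (0.0403 to 0.099), Ecpas (0.0403 to 0.133), Tdrp (0.0448 to 0.201) and Kpna3 (0.0491 to 0.201), and in 0 for Cd81, Dab2ip, Sec1, Nkx6-2, Klrg2 and Fabp3, whose adjusted p ran from 0.0526 to 0.201. The sign of all 15 changes was the same in each of the 19 alternatives run. These reuse most or all of the libraries that picked the genes, so the unchanged sign is not separate support.

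A further 38 genes had an adjusted p from 0.05 to 0.1, 20 of them lower and 18 higher. Some had wider differences than the called genes of the same direction, the target aside, most of all Katnal1, a katanin-like gene, among the lower at −1.80 ± 0.33 (adjusted p = 0.0814) and Uchl1, a ubiquitin hydrolase, among the higher at 1.44 ± 0.26 (adjusted p = 0.0787). Nearest to the threshold were Elovl6, which elongates saturated fatty acids, at −0.70 ± 0.11 (adjusted p = 0.0521), and Larp4b, an RNA-binding protein, at −0.53 ± 0.085 (adjusted p = 0.0633). Elovl6 passed the threshold in 6 of the alternatives, among them TMM scaling and a minimum mean of 50.

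The change was also taken separately in embryos without and with Rbbp4 siRNA, which share no library. Without Rbbp4 siRNA (Rbbp7 knockdown against control), 3 of 12565 genes (0.0239%) were called, all lower: Rbbp7 (−4.71 ± 0.14), Enpep (−1.62 ± 0.14) and Fabp3 (−1.40 ± 0.15). With Rbbp4 siRNA (double against Rbbp4 knockdown), 2 genes (0.0159%) were called: Rbbp7 (−4.46 ± 0.14) and, higher, Ndufa9, a subunit of respiratory complex I listed at 0 in both Rbbp4 knockdown libraries. Enpep stood at −1.05 ± 0.14 there, with an adjusted p of 0.0895. Without control replicate 1 or without Rbbp7 knockdown replicate 2, Rbbp7 was the only gene called in the first of these comparisons, and without control replicate 2 the number was 38. Without double knockdown replicate 2, 13 genes were called in the second.

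The difference between both backgrounds was tested as an interaction. It was called for 1 of 12565 genes (0.00796%), Ndufa9, and for 0 of the 15 genes above, whose adjusted interaction p was 0.667 or more. Id2 was at −1.17 without and −1.35 with Rbbp4 siRNA, Cpxm1 at −1.46 and −1.43, and Ecpas at −0.65 and −0.65. The widest gap among the called genes was in Fabp3, −1.40 against −0.65, an interaction of 0.76 ± 0.21 (adjusted p = 0.667). Enpep had 0.57 ± 0.20 (adjusted p = 0.747) and Atp1b1 0.23 ± 0.20 (adjusted p = 0.867). The keratins had gaps of similar size, 0.84 ± 0.27 for Krt18 and 0.81 ± 0.27 for Krt8, with smaller differences where Rbbp4 siRNA was present. With 2 libraries per group these intervals are wide, and the absence of a call does not show that the change was equal on both backgrounds.

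**Figure D3:**
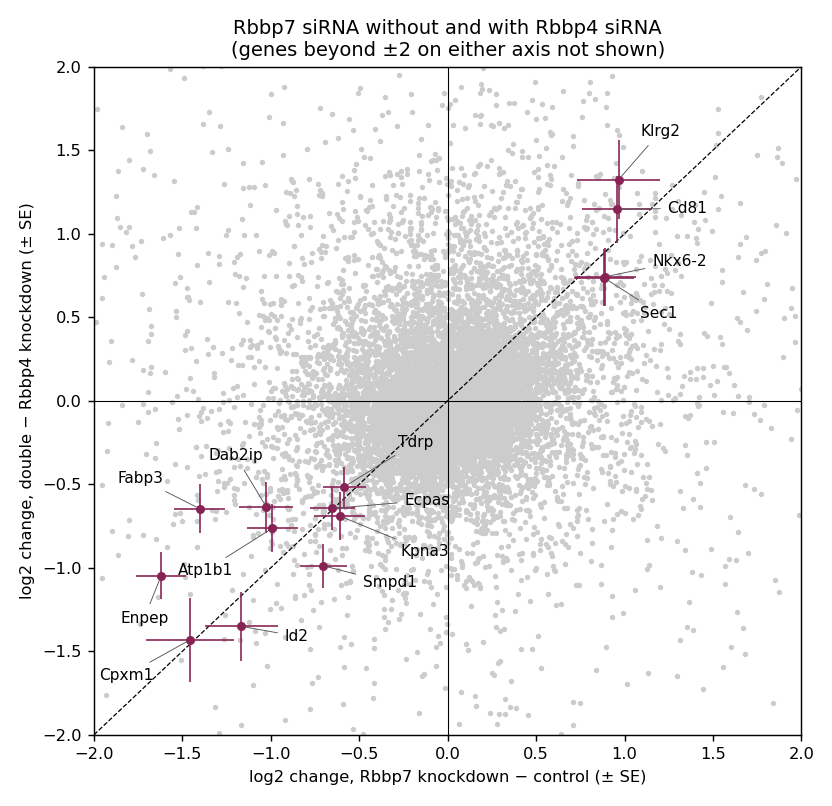
Log2 change with Rbbp7 siRNA without Rbbp4 siRNA (x axis, Rbbp7 knockdown − control) against that with Rbbp4 siRNA (y axis, double − Rbbp4 knockdown). Points are the 12230 tested genes within ±2 on both axes, those with names and SE bars are the 14 called genes other than the target, and the dashed line marks equal changes. All 14 lie in the lower left or upper right part, as being called on the average favours.

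Across all genes the 2 changes were only loosely related. Of 12552 genes with a value in both, 56.4% had the same sign, and Pearson's r across genes was 0.089, given as a description because genes are not replicates. Of the 236 genes with an unadjusted p under 0.01 in Rbbp7 knockdown against control, fitted on those 4 libraries alone, 171 (72.5%) had the same sign in double against Rbbp4 knockdown, where their median change in that direction was 0.20 against 0.82 in the libraries that picked them. Of the 329 genes picked in the same way from double against Rbbp4 knockdown, 223 (67.8%) had the same sign in the other comparison, with a median of 0.23 against 0.92.

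Genes of epithelial junctions, polarity and cavity formation numbered 35 tested, with Atp1b1 the only one called. Negative changes were found in 27 of the 35, and the median was −0.16. At an unadjusted p under 0.05, 8 were lower (background 6.37%) against 1 higher (background 5.7%). Dsp, the desmosomal plaque protein desmoplakin, had 1514 to 2192 with and 2590.4 to 3089 without Rbbp7 siRNA (−0.59 ± 0.12, adjusted p = 0.113). Cdh1, the adhesion protein E-cadherin, differed by −0.13 ± 0.068 (adjusted p = 0.488). Without control replicate 1, 22 of the 35 were negative, 13 were lower at unadjusted p under 0.05 and the median was −0.14. The count of lower members was 5 without control replicate 2 or without Rbbp7 knockdown replicate 1.

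Of 38 tested lysosomal genes, 30 were negative, with a median of −0.13, 5 lower at unadjusted p under 0.05 (3 without Rbbp4 knockdown replicate 1 or without Rbbp7 knockdown replicate 2) and 0 called. Over all tested genes, 6.37% were lower at that threshold. Neu1, the sialidase of lysosomes, had the smallest p, at 1051 and 1439.8 with control siRNA, 1371 and 1573 with Rbbp4 siRNA alone, 583 and 486 with Rbbp7 siRNA alone, and 1079 and 967 with both siRNAs (−0.86 ± 0.16, adjusted p = 0.0891). It was lowest in the Rbbp7 knockdown pair. Grn, the precursor of lysosomal granulins, had −0.34 ± 0.10 (adjusted p = 0.228), and Atp6v0d1, a subunit of the acidifying proton pump, −0.29 ± 0.10 (adjusted p = 0.286). Smpd1, which was called, is lysosomal but was not on the list.

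Of 22 fatty acid genes, 15 were negative, with a median of −0.16, 7 were lower (background 6.37%) and 2 higher (background 5.7%) at unadjusted p under 0.05, and Fabp3 was called. The higher count was 0 to 2 with 1 library left out. Besides Elovl6, the triglyceride synthase Dgat2 had −0.79 ± 0.22 (adjusted p = 0.204) and the lipid droplet coat protein Plin2 −0.38 ± 0.12 (adjusted p = 0.234). Both had groups that did not overlap. Over the list, 6 of the 22 lay wholly lower in this way, against 3.43% of all tested genes. Of 21 glycolysis genes, 4 were higher (background 5.7%) and 3 lower (background 6.37%) at unadjusted p under 0.05, with 0 called. Ldha, which makes lactate, was at 647 and 392 with control siRNA, 612 and 619 with Rbbp4 siRNA alone, 814 and 701 with Rbbp7 siRNA alone, and 1289.9 and 1846 with both siRNAs (0.95 ± 0.20, adjusted p = 0.113). Pfkl, a phosphofructokinase subunit, had 0.49 ± 0.12 (adjusted p = 0.166), and Pfkfb2 −0.43 ± 0.12 (adjusted p = 0.215).

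Targets of p53 had mostly positive changes. Of 33 tested, 27 had a positive change, the median was 0.18, and 11 were higher at an unadjusted p under 0.05 (background 5.7%) with 0 lower; 0 were called. Ddit4, an inhibitor of mTOR signalling induced by stress, was at 2571 and 2967 with control siRNA, 3219 and 4228 with Rbbp4 siRNA alone, 6199 and 4968 with Rbbp7 siRNA alone, and 5981 and 4643 with both siRNAs (0.76 ± 0.14, adjusted p = 0.0935). Zmat3, an RNA-binding p53 target, had 1858 to 2430.0 with and 1183 to 1691 without Rbbp7 siRNA (0.50 ± 0.10, adjusted p = 0.0958). Phlda3, an inhibitor of AKT, had 948 to 1162 and 585 to 799.7 (0.53 ± 0.10, adjusted p = 0.0958). In none of these 3, named for the smallest p on the list, did the groups overlap. Over the list, 6 of the 33 lay wholly higher in this way, against 2.75% of all tested genes. Mdm2, the p53 ubiquitin ligase, had 0.40 ± 0.091 (adjusted p = 0.145), and Trp53 itself 0.18 ± 0.076 (adjusted p = 0.374). Cdkn1a, the cell cycle inhibitor p21, did not follow them: it was at 4284 and 4415 with control siRNA, 2539 and 2252 with Rbbp4 siRNA alone, 3781 and 2916 with Rbbp7 siRNA alone, and 4561 and 2884 with both siRNAs (0.11 ± 0.21, adjusted p = 0.876). The list had a median of 0.18 without and 0.21 with Rbbp4 siRNA, and of 0.21 for the average Rbbp4 effect, which uses the same 8 libraries. Without control replicate 1, 28 of 33 were positive and 11 were higher at unadjusted p under 0.05, and without Rbbp7 knockdown replicate 1 that count was 7.

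**Figure D4:**
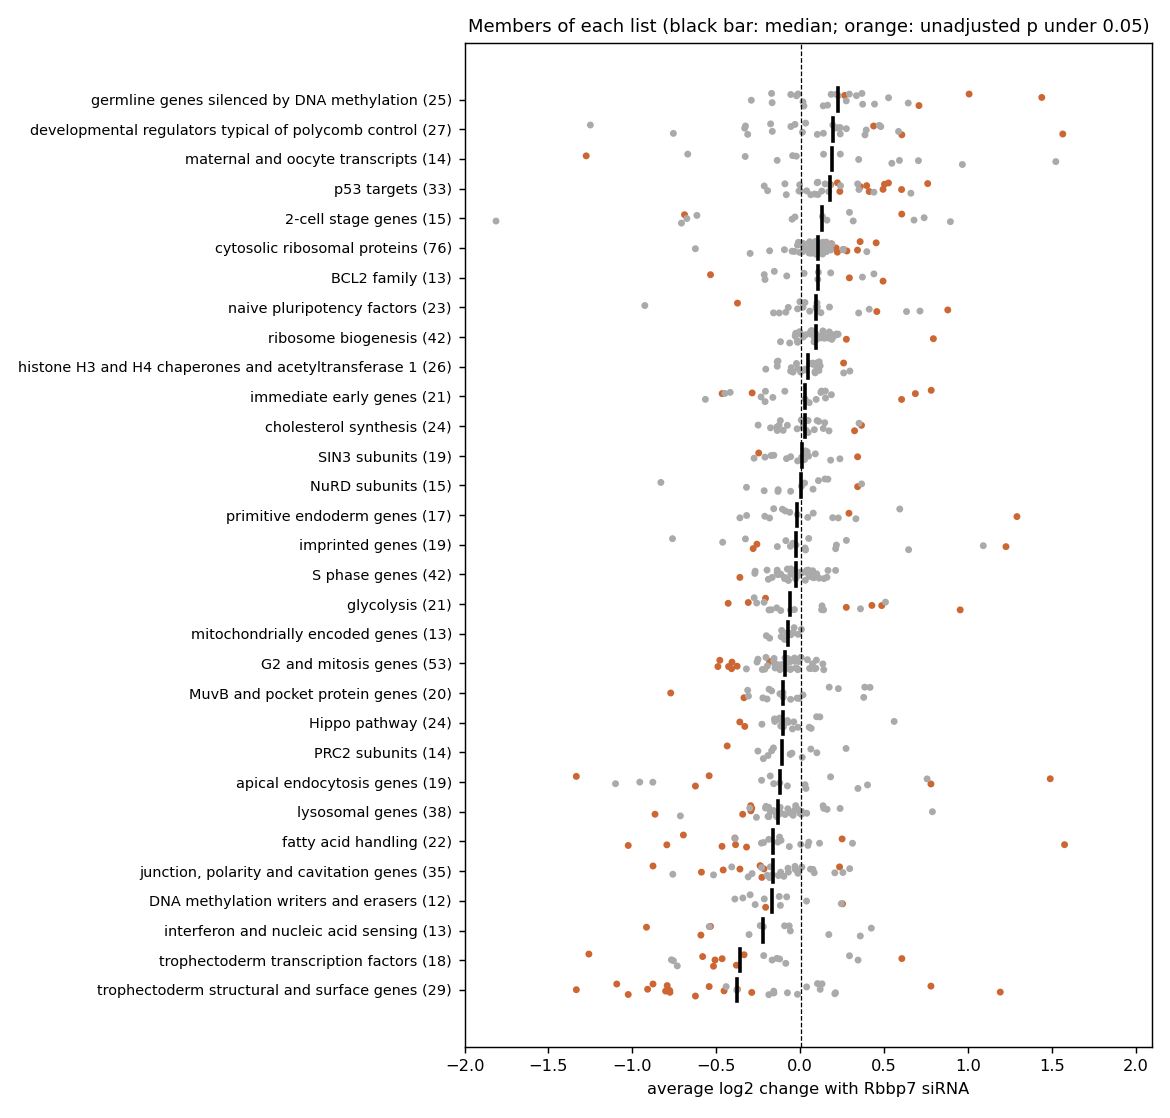
Average log2 change with Rbbp7 siRNA of each tested member (points) of the gene lists with at least 12 tested members. Each list median (bar) stands beside that of all tested genes. Rbbp7 is left out of the points but counted in the medians of the lists that hold it. The trophectoderm lists have medians of −0.36 and −0.37, and the p53 targets 0.18, against 0.0036 over all genes.

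In the cell cycle lists, 42 of 53 G2 and mitosis genes were negative, with a small median of −0.089. At unadjusted p under 0.05, 7 were lower (background 6.37%), and 0 were called. Prc1, which bundles the central spindle, had 1849 to 2311 with and 2790.2 to 2938 without Rbbp7 siRNA (−0.41 ± 0.082, adjusted p = 0.109). Ncapd2, a condensin subunit, had −0.49 ± 0.10 (adjusted p = 0.113), Mki67 −0.41 ± 0.12 (adjusted p = 0.215) and Cdk1 0.14 ± 0.11 (adjusted p = 0.637). Of 42 S phase genes, 24 were negative and 18 positive, with a median of −0.025 and 1 lower at unadjusted p under 0.05 (background 6.37%). Of 76 cytosolic ribosomal protein genes, 67 had a positive change, with a median of 0.11. In all, 8 were higher at unadjusted p under 0.05 (background 5.7%) and 0 were called. Rps18 had the smallest p, with 0.45 ± 0.13 (adjusted p = 0.215). When control replicate 1 was left out, 62 of the 76 were positive, 3 were higher at that threshold and the median was 0.072. That count was 4 without Rbbp4 knockdown replicate 1 and 5 without either Rbbp7 knockdown replicate. Of 42 ribosome biogenesis genes, 34 were positive, with a median of 0.093 (0.15 without Rbbp4 knockdown replicate 2).

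In the chromatin machines that contain RBBP7, no gene other than Rbbp7 itself was called. Rbbp7 is a member of the NuRD, PRC2, SIN3 and histone chaperone lists, and their medians below count it. In the NuRD list of 15 genes the median was 0.0081; Hdac1, its deacetylase, had 0.34 ± 0.10 (adjusted p = 0.215) and was highest in the Rbbp7 knockdown pair, at 5519 and 5804 against 3362 to 3979 in the other 6 libraries. Hdac2 had 0.026 ± 0.12, Chd4 −0.13 ± 0.13, Mta1 0.11 ± 0.18 and Mta2 0.17 ± 0.10. In the PRC2 list of 14 genes the median was −0.11, and −0.057 without Rbbp4 knockdown replicate 1. Mtf2, a DNA-binding partner of PRC2, had the smallest p after Rbbp7, with −0.43 ± 0.079 (adjusted p = 0.0835). The methyltransferase Ezh2 had −0.19 ± 0.090, Eed 0.064 ± 0.10 and Suz12 −0.059 ± 0.091. In the SIN3 list of 19 genes the median was 0.0098, with Sin3a at 0.051 ± 0.10. Among 26 histone chaperone genes it was 0.046, with Hat1 at 0.033 ± 0.10, Chaf1a at −0.14 ± 0.11 and Hira at 0.26 ± 0.11 (adjusted p = 0.369). The H3.3 gene H3f3a had −0.022 ± 0.12 (adjusted p = 0.963). Its sister H3f3b was at 6557 and 6874 with control siRNA, 7184 and 8728 with Rbbp4 siRNA alone, 5671 and 6894 with Rbbp7 siRNA alone, and 12632 and 13024 with both siRNAs. The double knockdown pair of H3f3b was the highest, and the average, 0.30 ± 0.15 (adjusted p = 0.483), joined −0.10 without and 0.70 with Rbbp4 siRNA. The H3f3b interaction of 0.80 ± 0.19 (adjusted p = 0.593) was not called.

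Among pluripotency factors, the average near 0 of Nanog joined opposite differences. Nanog, a homeobox factor of inner cells, was at 6698 and 6322 with control siRNA, 6545 and 6051 with Rbbp4 siRNA alone, 9093 and 10156 with Rbbp7 siRNA alone, and 4192 and 4692 with both siRNAs. It was highest in the Rbbp7 knockdown pair and lowest in the double knockdown pair. The average was 0.029 ± 0.18 (adjusted p = 0.967) from 0.56 without and −0.50 with Rbbp4 siRNA, with an interaction of −1.07 ± 0.16 (adjusted p = 0.369) that was not called. Pou5f1 had 0.057 ± 0.10, Klf4 0.12 ± 0.10 and Sox2 −0.93 ± 0.42 (adjusted p = 0.414), the last with a spread from 61.8 to 205 with and 129 to 375 without Rbbp7 siRNA. Esrrb, an orphan nuclear receptor, had 0.46 ± 0.13 (adjusted p = 0.215). Of 23 naive factors, 15 were positive, with a median of 0.10 (0.038 without Rbbp7 knockdown replicate 1) and 0 called. Of 17 primitive endoderm genes the median was −0.016. Gata6 had −0.088 ± 0.080, and Sox17 was at 10.05 and 10.3 with control siRNA, 44.8 and 20.3 with Rbbp4 siRNA alone, 17.8 and 72.8 with Rbbp7 siRNA alone, and 84.03 and 35.8 with both siRNAs (1.29 ± 0.52, adjusted p = 0.354).

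Genes that chromatin repressors keep off in the embryo were also counted. Of 25 tested germline genes silenced by DNA methylation, 19 were positive, with a median of 0.23; 4 were higher at unadjusted p under 0.05 (background 5.7%), none was lower at that threshold and 0 were called. The median was 0.10 without double knockdown replicate 1 and at most 0.32 with 1 library left out. Tuba3a, a testis tubulin, was at 40.6 and 44.1 with control siRNA, 26.1 and 47.1 with Rbbp4 siRNA alone, 62.7 and 93.8 with Rbbp7 siRNA alone, and 169 and 129 with both siRNAs (1.44 ± 0.32, adjusted p = 0.141). Dazl, an RNA-binding protein of germ cells, had 48.5 to 69.7 with and 21.1 to 47.1 without (1.01 ± 0.31, adjusted p = 0.235). Of 27 tested developmental regulators typical of polycomb control, 18 were positive, with a median of 0.19. At unadjusted p under 0.05, 3 were higher (background 5.7%), and 0 were called. That median was 0.082 after quantile normalization and 0.062 without Rbbp4 knockdown replicate 2 or without double knockdown replicate 1, and 0.31 without control replicate 2. It was −0.094 without and 0.52 with Rbbp4 siRNA, a gap that was not tested over the list. Sox9 had a gap in the same direction, at 57.3 and 80.2 with control siRNA, 125 and 89.6 with Rbbp4 siRNA alone, 45.9 and 58.5 with Rbbp7 siRNA alone, and 338 and 290.3 with both siRNAs. Its average was 0.59 ± 0.37 (adjusted p = 0.561), and its interaction of 1.94 ± 0.43 (adjusted p = 0.593) was not called. Among 12 genes of DNA methylation, Dnmt1 had 0.038 ± 0.094 and Dnmt3b −0.21 ± 0.088 (adjusted p = 0.385).

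The average Rbbp7 effect was set against the average Rbbp4 effect by a test of their difference in the same fit. Rbbp4 siRNA gave 27 called genes (0.215%), 12 higher and 15 lower. The difference between the effects was called for 4 genes (0.0318%): Rbbp7 (−4.45 ± 0.15), Rbbp4 (3.57 ± 0.15), Enpep and the predicted gene Gm12613. For Enpep the change was −1.33 ± 0.13 with Rbbp7 siRNA and 0.49 ± 0.13 with Rbbp4 siRNA, a difference of −1.82 ± 0.18 (adjusted p = 0.00616). The Enpep difference was not called without Rbbp4 knockdown replicate 1 or without either Rbbp7 knockdown replicate. Gm12613 was listed at 0 in the control and Rbbp7 knockdown libraries and at 64.0, 83.0, 151 and 130.2 in the 4 with Rbbp4 siRNA. Cubn and Ecpas came next, both with an adjusted p of 0.0614: Cubn had −0.62 ± 0.15 against 0.87 ± 0.15 (difference −1.49 ± 0.21), and Ecpas −0.65 ± 0.086 against 0.22 ± 0.086 (difference −0.87 ± 0.12). For Id2 the difference was −0.90 ± 0.20 (adjusted p = 0.263), for Atp1b1 −0.63 ± 0.15 (adjusted p = 0.263) and for Cd81 0.65 ± 0.20 (adjusted p = 0.365), so a difference between the siRNAs was not shown for these genes. Over the trophectoderm structural list the median was −0.37 for Rbbp7 and 0.065 for Rbbp4 siRNA, and over the trophectoderm transcription factors −0.36 and −0.078. Some other lists had the larger median with Rbbp4 siRNA, in the same direction. Over the G2 and mitosis genes it was −0.089 for Rbbp7 and −0.21 for Rbbp4 siRNA. For the germline genes these medians were 0.23 and 0.33, and for the developmental regulators 0.19 and 0.45. Differences between list medians were not tested.

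**Figure D5:**
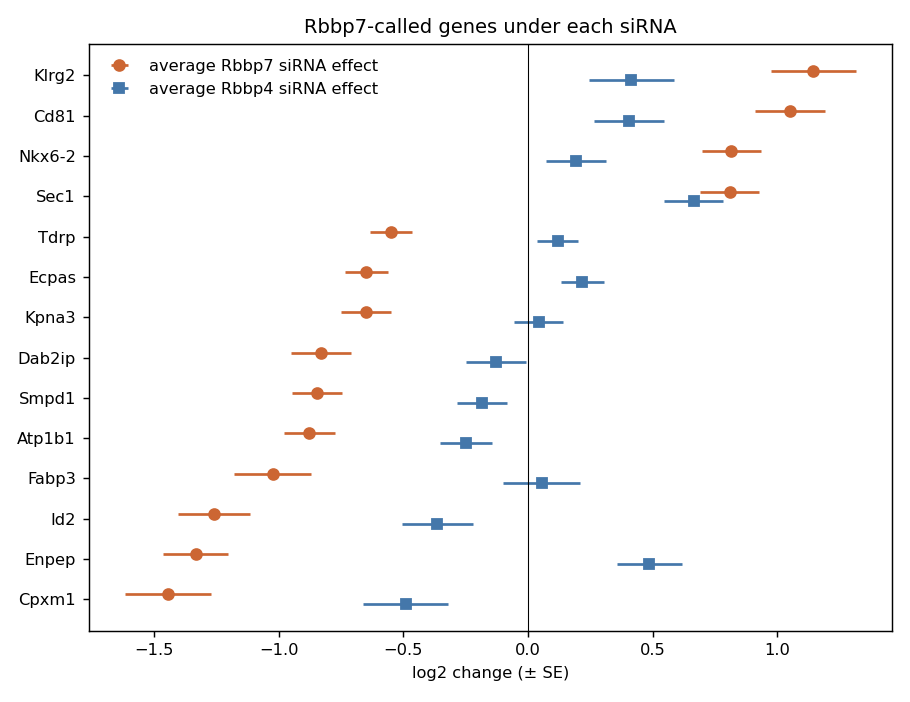
Average log2 change with Rbbp7 siRNA and with Rbbp4 siRNA, each with its SE, for the 14 called genes other than Rbbp7. Enpep is −1.33 with Rbbp7 and 0.49 with Rbbp4 siRNA, and Sec1 is 0.81 with Rbbp7 and 0.67 with Rbbp4 siRNA.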

How the data were processed

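Poly(A) RNA of 8 late morula libraries was measured by RNA-seq. The labels give isolation with a Picopure kit, oligo(dT) beads and NEB Next Ultra libraries; the submitters' processing notes name Trimmomatic, HISAT2, featureCounts and DESeq2 and the build GRCm38. The values are the normalized gene abundance (a signal) that the authors deposited, 1 table for 8 libraries. Whole reads could not be recovered from it (28.01% to 61.3% of low values per library were within 0.05 of a whole multiple), so depth is unknown, no count test was run, and no interval for counting error is given. All 8 columns were mapped to samples by name, and 18942 of 19058 gene IDs to symbols (GENCODE M21).

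Values were taken as log2(value + 1), where fold changes of low genes are understated, and genes whose mean over the libraries reached 10 were fitted with limma 3.58.1 (R 4.3.3, intensity trend, two-sided, 5 residual and 5.24 prior degrees of freedom). The Rbbp7 term was fitted with Rbbp4 siRNA as covariate; effects on each background and the interaction came from a fit with 1 mean per group. Tested on simulated data with the genes of this comparison (12565 genes), the fit called 50% of genes changed by −1 and 84% of those changed by −2 on the log2 scale, and 52% and 82% of those changed by 1 and 2. More changed genes were planted there than were called here. The adjusted threshold loosens as more genes change, so these shares may be too high for this comparison. Alternatives were other pseudocounts, filters, scalings (a trimmed mean of M values, TMM, and quantile normalization) and models, and each library left out; running them on list medians was chosen after seeing the data. Shared sequence was searched with blastn 2.17.0 (at least 95% identity over 200 bases). It also found near-identical copies of Krt8 (Krt8-ps), Elovl6 (Gm11295), Nanog (Nanog-ps1) and H3f3b (Gm37486 and Gm6485), which could share their reads.

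The comparison, the gene lists and the markers were chosen with earlier results of these data known. Named genes were 44 fixed genes, all called genes with groups that did not overlap, list members called (up to 5), or, in lists with 0 called, the 3 with the smallest p, and every gene of a count of 5 or fewer. Sec1, Krt19, Cubn, Elf3, Hand1, Dsp, Elovl6, Dgat2, Plin2, Mtf2, Larp4b, Katnal1 and Uchl1 were chosen after their values were seen, as were the promoters and motifs.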

Additional observations from a re-analysis of the deposited data

Results flagged for a closer look

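Ndufa9, a subunit of respiratory complex I, was the only gene whose response to Rbbp7 siRNA differed between embryos without and with Rbbp4 siRNA by the test of the interaction. It read 276 and 468 with control siRNA, 0 and 0 with Rbbp4 siRNA alone, 459 and 172 with Rbbp7 siRNA alone, and 476 and 323 with both siRNAs. The interaction on the log2(value + 1) scale was 8.97 ± 0.68 (limma, adjusted p = 0.00344), a size fixed by the pseudocount because both Rbbp4 knockdown libraries are listed at 0. The other 6 libraries, 172 to 476, covered overlapping ranges in the 3 remaining groups. The gene was called in the interaction in each of the 8 fits that left out 1 library.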

How the results depend on the processing

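The count of 15 called genes was 11 to 18 under other pseudocounts, filters, scalings, library weights and 1 mean per group. It was 1 (Rbbp7) with the Rbbp7 term alone, 5 without an intensity trend and 2 to 15 with 1 library left out; the cause was not tested, apart from the fewer libraries in the last. A replicate block gave 6 called genes (Rbbp7, Enpep, Id2, Atp1b1, Smpd1 and Cpxm1). Deviations of same-numbered libraries from their group means correlated between groups at −0.022 to 0.051, so the numbers were not taken as pairs. The other counts with 1 library left out were 1 to 38 for Rbbp7 siRNA without Rbbp4 siRNA, 2 to 13 with it, 1 to 21 for the interaction and 2 to 7 for the difference between the siRNAs. With 1 library left out, that group's remaining library is assumed to vary like the others. Enpep lost its call with the Rbbp7 term alone and without the trend (adjusted p at most 0.0872).

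Of 2633 changes of single genes under alternatives, 26 reversed, all in genes that were not called. With library weights H3f3a was 0.014. With 1 library left out, values ran from −0.14 to 0.0018 for Rbbp4, −0.048 to 0.093 for Hat1, −0.053 to 0.14 for Hdac2, −0.033 to 0.23 for Mta1, −0.12 to 0.0998 for H3f3a, −0.11 to 0.17 for Nanog, −0.032 to 0.13 for Pou5f1, −0.13 to 0.28 for Cdkn1a, −0.082 to 0.0046 for Ccnb1, −0.0024 to 0.12 for Yap1, −0.025 to 0.093 for Dnmt1, −0.35 to 0.066 for mt-Atp6 and −0.22 to 0.0015 for mt-Nd1. Of 589 list medians, 26 moved by more than the spread between libraries. The median of all genes, 0.0036 in the main fit, was 0.0035 with TMM scaling and 0.0021 after quantile normalization. It was −0.0074 with a minimum mean of 50. Depth is unknown, so no limit from counting could be set.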

Other observations

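Further lists fixed with the others had 0 called genes. Of 13 tested genes of interferon and nucleic acid sensing, 10 were negative and 3 were lower at an unadjusted p under 0.05 (background 6.37%), with a median of −0.22 that was −0.047 without control replicate 2 and −0.068 without double knockdown replicate 1. Irf3, a transcription factor activated by nucleic acid sensors, had 38.1 to 129 with and 69.8 to 179 without Rbbp7 siRNA (−0.92 ± 0.26, adjusted p = 0.215). Irf9 had 81.3 to 128 and 133 to 172, with no overlap (−0.59 ± 0.18, adjusted p = 0.228), and Irf5 −0.53 ± 0.20 (adjusted p = 0.315). Of 24 Hippo pathway genes, 19 were negative, with a median of −0.10. The junction-bound Hippo regulator Amot had 1567 to 1747 with and 1884 to 2456 without (−0.33 ± 0.085, adjusted p = 0.167), and the effector Yap1 0.066 ± 0.086.

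Immediate early genes were divided, 11 positive and 10 negative, with Btg2 at 0.60 ± 0.15 (adjusted p = 0.166), Dusp1 at 0.78 ± 0.23 (adjusted p = 0.228) and Klf6 at −0.46 ± 0.12 (adjusted p = 0.172). E2f2, an activator of cell cycle genes, was at 286 and 276 with control siRNA, 283 and 289.6 with Rbbp4 siRNA alone, 243 and 224 with Rbbp7 siRNA alone, and 132 and 105 with both siRNAs (−0.77 ± 0.21, adjusted p = 0.192), lowest in the double knockdown pair. Fgf4, the growth factor that inner cells make, was at 177 and 150.4 with control siRNA, 152 and 103 with Rbbp4 siRNA alone, 605 and 385 with Rbbp7 siRNA alone, and 209 and 99.2 with both siRNAs (0.88 ± 0.33, adjusted p = 0.322). Hsd17b1, a steroid dehydrogenase on the granulosa cell list, had 201 to 301 with and 125 to 148 without Rbbp7 siRNA (0.91 ± 0.16, adjusted p = 0.0814); of the same list, Star had −0.36 ± 0.35 and Foxl2 0.70 ± 0.42, both with overlapping groups.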
